A study of Drosophila melanogaster with 9 samples.

Results

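The gene kdm5, named lid in the deposited tables, and the genes of 7 proteins reported to act with it in transcription are described here. These are 8 of the 17478 genes in each table. They were chosen by symbol: lid, Sin3A, Rpd3, Caf1, MRG15, Pf1, Sir2 and Myc. The tables held 7 of these symbols. Pf1 is listed there as CG3815, for which RefSeq gives Pf1 as a synonym. The current symbols of lid, Rpd3, Caf1 and Sir2 are Kdm5, HDAC1, Caf1-55 and Sirt1.

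Messenger RNA was sequenced from whole heads of adult Drosophila melanogaster aged 3 to 5 days. There were 3 libraries each of kdm5[A512P], a mutant named for a substitution in KDM5, of kdm5[JmjC*], whose KDM5 has no demethylase activity, and of wild type (WT). The labels do not give the sex of the flies, whether the alleles sit at the kdm5 locus or on a transgene, or whether libraries of 1 group come from different batches of flies. The p-values rest on the spread among these libraries alone, and that spread may be only technical. Each table gives the authors' comparison of 1 mutant with WT, and both mutants were set against the same 3 WT libraries. Values per library were not used here, so levels are means over all libraries and the depth of each library is unknown.

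KDM5 removes methyl groups from lysine 4 of histone H3 through its Jumonji C domain, and it also acts without this activity by holding other proteins at promoters. Among the proteins reported with it in flies are subunits of the SIN3 corepressor, in which the scaffold Sin3A brings the histone deacetylase Rpd3 to chromatin, often beside the chromodomain protein MRG15 and the PHD finger protein Pf1. Caf1 is a histone-binding subunit shared by several chromatin complexes, Sir2 is an NAD-dependent deacetylase, and Myc is a transcription factor that binds KDM5 and controls growth genes.

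Head tissue was well represented in the libraries: the 5 neuronal markers had mean normalized counts of 7366 to 55081, the 5 photoreceptor markers 67825 or more, and the 5 glial markers 2184 or more. Blood cell markers summed to 17425 and none was at 0, and the 4 germline markers were each at 20.6 or below. In bulk heads, fewer cells of a type and less RNA per cell cannot be told apart.

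All 8 genes were expressed in heads, and lid was the most abundant per length. Its mean normalized count was 15978 (a count scaled for library size, averaged over all libraries), which is 2232 per kb of exon and lies above 93.2% of the 15152 genes with any count. Sin3A followed at 1318 per kb and Sir2 at 1088 per kb. Rpd3, the deacetylase of the SIN3 complex, had 607 per kb, and Caf1 had 453 per kb. MRG15 was at 376 per kb, Myc at 339 per kb and CG3815 (Pf1), the lowest, at 207 per kb, still above 53.7% of genes. Without values per library it was not tested which neighbours in this order differ beyond their spread. The smallest steps were those of MRG15 over Myc, 1.11 times, of Caf1 over MRG15, 1.20 times, and of Sin3A over Sir2, 1.21 times. The Myc value is the least certain of these levels, because other genes cover 61.2% of its exon length.

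**Figure D1:**
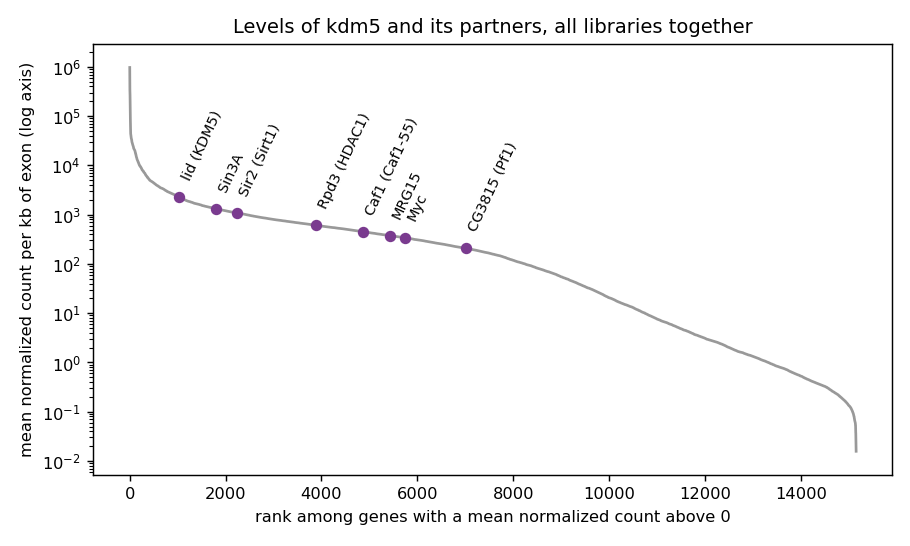
Mean normalized count per kb of exon (log axis) of all genes with a count above 0, ranked from high to low (grey line), with the 8 genes as purple points; the mean is over the libraries of all 3 groups. The points run from lid at 2232 per kb to CG3815 (Pf1) at 207 per kb, all in the upper part of the range.

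In heads of A512P flies none of the 8 genes passed the threshold of an adjusted p under 0.05 in the authors' deposited table, at a background of 21.0% of the 11608 tested genes. None had an unadjusted p under 0.05 either, by the authors' Wald test, against 3710 of all 11608 tested genes. The log2 fold changes in the authors' deposited table ran from -0.16 for Sin3A to 0.18 for MRG15, 4 above 0 and 4 below, with a median of 0.032 against 0.0027 over all tested genes. In heads of JmjC* flies 2 of the 8 rose, Sin3A and MRG15, and none fell, at a background of 14.2% higher and 14.6% lower among 11898 tested genes (28.8% in either direction). The share of 2 in 8 is close to that background in either direction. In JmjC* the 8 log2 fold changes of the authors' deposited table ran from -0.13 for Myc to 0.31 for MRG15, with a median of 0.18 against 0.011 over all tested genes.

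**Figure D2:**
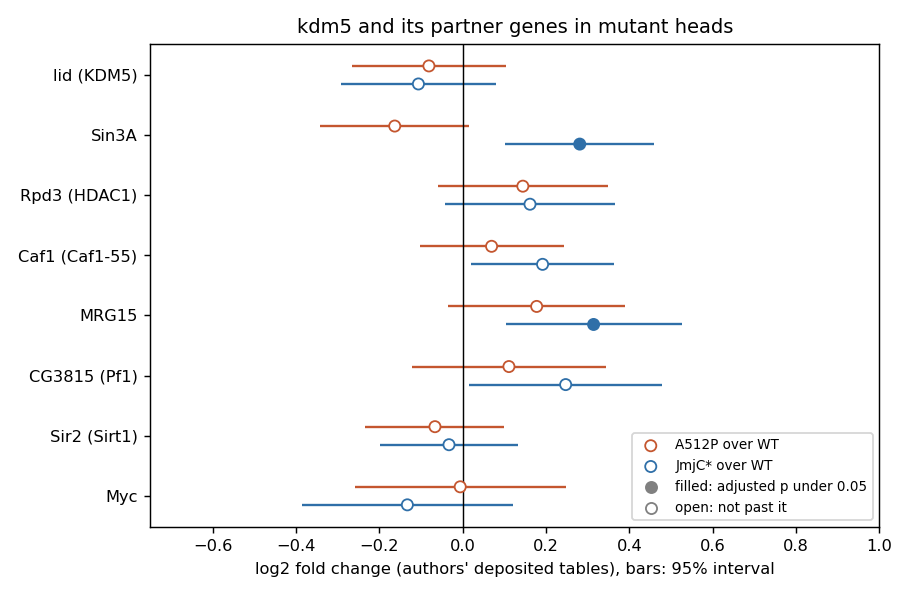
Log2 fold change of each of the 8 genes in A512P heads over WT (orange) and JmjC* heads over WT (blue), from the authors' deposited tables; points are the deposited values from 3 libraries a group, bars are 95% normal intervals and filled points have an adjusted p under 0.05. Sin3A lies left of 0 in A512P and right of it in JmjC*, and Sin3A and MRG15 in JmjC* are the 2 filled points.

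The kdm5 gene itself was near WT level in both mutants. lid (FBgn0031759; BDGP6.54, chromosome 2L, 5989400 to 5999501, minus strand, protein coding, 6 annotated transcripts) was at 0.945 times WT in A512P, with a 95% interval of 0.831 to 1.08, by the authors' deposited table. In JmjC* it was at 0.929 times WT by the authors' deposited table (0.817 to 1.06). Its log2 fold changes in the authors' deposited tables were -0.081 ± 0.095 in A512P (SE, adjusted p = 0.61) and -0.11 ± 0.095 in JmjC* (adjusted p = 0.431). At this SE an estimated change of about 1.18-fold in A512P or 1.17-fold in JmjC* was needed for a call. A true change of that size can be missed. No annotated exon of another gene overlaps those of lid. A gene-level count cannot tell mutant from normal kdm5 transcripts, so it does not check the labels.

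Sin3A, the scaffold of the SIN3 complex, was the gene whose 2 values lay on opposite sides of 0. It (FBgn0022764; chromosome 2R, 12575240 to 12592917, minus strand, 10 annotated transcripts) was at log2 -0.16 ± 0.091 in A512P in the authors' deposited table (SE, adjusted p = 0.207), or 0.893 times WT with a 95% interval of 0.789 to 1.01. In JmjC* it rose to 1.21 times WT (1.07 to 1.38) by the authors' deposited table, a log2 fold change of 0.28 ± 0.091 (adjusted p = 0.0101). The difference, A512P minus JmjC*, was -0.44 ± 0.13 on the log2 scale, with a 95% interval of -0.697 to -0.191. By a two-sided normal test it had an unadjusted p of 0.000587, the rank 111 of 11608 genes, and an adjusted p of 0.0614, which missed the threshold at a background of 0.879% of genes called. The SE of that difference is an upper bound, since it counts the shared WT libraries in both comparisons. With the WT part taken out, under equal spread in the 3 groups, the adjusted p was 0.000122 and Sin3A was called. With that smaller SE 429 of 11608 genes were called, a background of 3.70%. Other genes cover 0.637% of the Sin3A exon length.

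Rpd3, the catalytic deacetylase of SIN3 and other corepressors, did not pass in either mutant. Rpd3 (FBgn0015805; chromosome 3L, 4626734 to 4629467, plus strand) was at log2 0.14 ± 0.104 in A512P in the authors' deposited table (SE, adjusted p = 0.359). In JmjC* it was at 0.16 ± 0.104 in the table the authors deposited (adjusted p = 0.251). The 95% intervals of its fold change ran from 0.96 to 1.27 times WT in A512P and from 0.971 to 1.29 in JmjC*. Caf1 (FBgn0263979; chromosome 3R, 15225576 to 15227564, plus strand), whose product binds histones, stood at log2 0.069 ± 0.088 in A512P in the table the authors deposited (adjusted p = 0.642). In JmjC* Caf1 stood at 0.19 ± 0.088 in the authors' deposited table, with an unadjusted p of 0.0289 and an adjusted p of 0.0858.

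MRG15, which reads methylated lysine 36 of histone H3, rose in JmjC*. It (FBgn0027378; chromosome 3R, 15276440 to 15278109, minus strand) was at 1.13 times WT in A512P by the authors' deposited table, with a 95% interval of 0.976 to 1.31 (log2 0.18 ± 0.108 SE, adjusted p = 0.256). In JmjC* it rose to 1.24 times WT (1.07 to 1.44) by the authors' deposited table (log2 0.31 ± 0.108, adjusted p = 0.0158). The A512P minus JmjC* difference of MRG15 was -0.14 ± 0.15 (adjusted p = 0.9997 by the normal test of the difference; 95% interval -0.436 to 0.163). Annotated exons of CG4338 and l(3)neo43 cover 10.9% of the MRG15 exon length. CG3815 (Pf1; FBgn0029861; chromosome X, 6295389 to 6298970, plus strand) stood at log2 0.11 ± 0.12 in A512P in the table the authors deposited (adjusted p = 0.57). In JmjC* it stood at 0.25 ± 0.12 in the authors' deposited table, with an unadjusted p of 0.0364 and an adjusted p of 0.103. Its exons overlap no other gene.

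Sir2, a deacetylase outside the SIN3 complex, and Myc showed the smallest scores in A512P. Sir2 (FBgn0024291; chromosome 2L, 13165564 to 13169551, plus strand) was at log2 -0.067 ± 0.085 in A512P in the authors' deposited table (SE, adjusted p = 0.644). In JmjC* it was at -0.033 ± 0.085 in the table the authors deposited (adjusted p = 0.816), with a 95% interval of 0.871 to 1.10 times WT. Myc (FBgn0262656; chromosome X, 3373159 to 3391697, plus strand) was at log2 -0.0059 ± 0.13 in A512P in the table the authors deposited (adjusted p = 0.984). In JmjC* it was at -0.13 ± 0.13 in the table the authors deposited (adjusted p = 0.478). Myc had the widest intervals of the 8, from 0.765 to 1.09 times WT in JmjC*. An estimated change of about 1.25-fold was needed for a call there.

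The 8 genes needed estimated changes of modest size for a call. Their SEs ran from 0.0851 to 0.129 in A512P and were nearly the same in JmjC*, against a median of 0.124 over all tested genes in A512P in the authors' deposited table. At these SEs the estimated fold change needed for a call ran from 1.16 to 1.26 in A512P and from 1.16 to 1.25 in JmjC*. Besides Sin3A, the differences between mutants ran from -0.14 for MRG15 to 0.13 for Myc on the log2 scale, each with an adjusted p of 0.9997. Their intervals reached -0.464 for CG3815 and 0.485 for Myc, so differences of that size between the mutants were not resolved.

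The partner lists hold other subunits of the same complexes together with related deacetylase, sirtuin and Myc network genes and foxo. Of 55 tested genes on the partner lists, outside the 8, 3 rose and 5 fell in A512P, at a background of 10.2% higher and 10.8% lower in the authors' deposited table. In JmjC* 8 rose and 6 fell, at a background of 14.2% and 14.6%. The medians of these 55 genes were -0.045 in A512P and -0.026 in JmjC* on the log2 scale.

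The LAF complex joins KDM5, Sin3A, Rpd3, MRG15 and Pf1 to the histone chaperones Asf1 and Nap1 and to the fly counterpart of EMSY, CG15356. Nap1 fell in both mutants, to 0.815 times WT in A512P (log2 -0.29 ± 0.093 SE, adjusted p = 0.0104) and to 0.81 times WT in JmjC* (-0.30 ± 0.093, adjusted p = 0.00557), by the authors' deposited tables. Other genes cover 73.0% of the Nap1 exon length, and strand use in counting is not stated, so this value is uncertain. CG15356 was at log2 0.19 ± 0.097 in A512P (adjusted p = 0.164) and rose by 0.29 ± 0.097 in JmjC* (adjusted p = 0.0117) in the authors' deposited tables. The other chaperone gene, asf1, was at log2 -0.11 in A512P and -0.15 in JmjC* in the authors' deposited tables, with adjusted p of 0.572 and 0.384. In all, 1 of 8 LAF genes fell (Nap1) with no rise in A512P, at a background of 21.0% in either direction. In JmjC* 3 rose (Sin3A and MRG15, counted above, and CG15356) and 1 fell (Nap1), at a background of 28.8%.

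Within the SIN3 complex the largest change was that of Bin1, the gene of the SAP18 subunit. Bin1 rose to 1.89 times WT in A512P (log2 0.92 ± 0.18 SE, adjusted p = 4.49e-06) and to 2.95 times WT in JmjC* (1.56 ± 0.18, adjusted p = 8.58e-17) by the authors' deposited tables. The A512P minus JmjC* difference of Bin1 was -0.64 on the log2 scale (unadjusted p = 0.0105, adjusted p = 0.465 by the normal test). Exons of CG8927, sra and a transposon copy cover 14.4% of the Bin1 exon length. Sap30, another subunit gene, rose by 0.33 ± 0.12 in A512P (adjusted p = 0.0349) and was at 0.26 ± 0.12 in JmjC* (adjusted p = 0.0907) in the authors' deposited tables. Sap130 was at log2 -0.21 ± 0.081 in A512P (adjusted p = 0.0506) and -0.089 in JmjC* (adjusted p = 0.436) in the authors' deposited tables. The Sds3 and ING family subunit genes, CG14220 and CG7379, did not pass in either mutant. Over the 10 SIN3 genes 2 rose in A512P and none fell, at a background of 21.0% in either direction, with a median of 0.13. In JmjC* 3 rose and none fell, at a background of 28.8%, with a median of 0.22, and 2 of the 3 are Sin3A and MRG15, counted above.

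**Figure D3:**
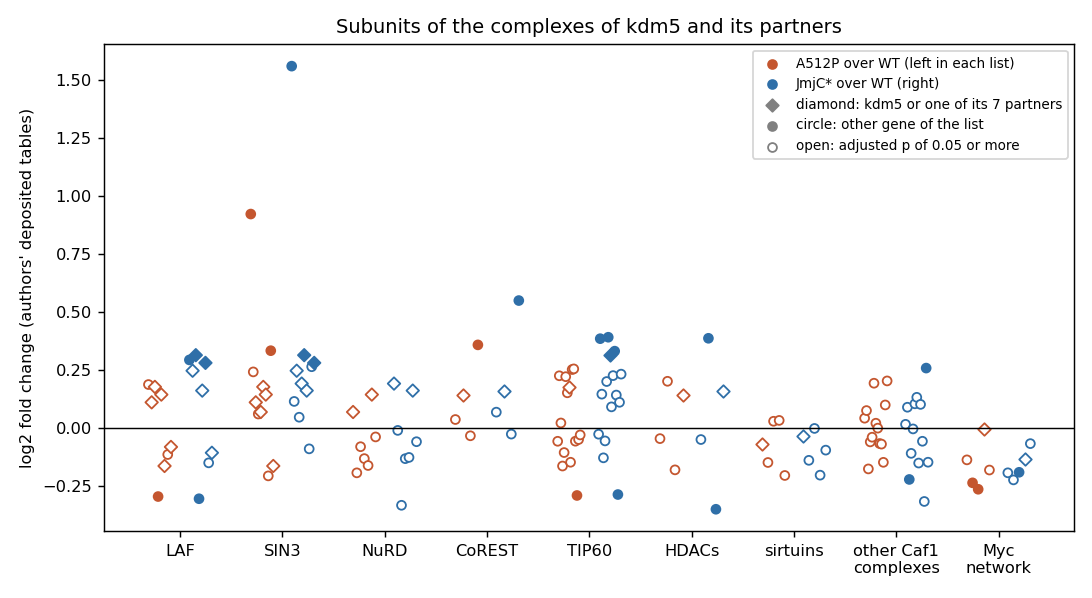
Log2 fold change over WT, from the authors' deposited tables, of each tested gene of 9 lists, A512P (orange, left in each list) and JmjC* (blue, right). Filled points have an adjusted p under 0.05 and diamonds are the 8 genes; Bin1 in the SIN3 list, at 0.92 and 1.56, stands above all other points.

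The NuRD complex, where Rpd3 and Caf1 sit beside the ATPase Mi-2, was listed together with the MEC complex. None of these 7 genes passed in either mutant, at backgrounds of 21.0% in A512P and 28.8% in JmjC*. Exons of CG42245 cover 89.4% of the exon length of MEP-1, which is among the 7, so its value is uncertain. By the authors' Wald test 1 of the 7 had an unadjusted p under 0.05 in A512P (Mi-2) and 1 in JmjC* (Caf1). Over all tested genes that held for 3710 of 11608 in A512P and 4553 of 11898 in JmjC*. In the list of 4 genes of CoREST and its associate l(3)mbt, the 1 call was l(3)mbt itself, which represses germline genes in the larval brain. It rose by 0.36 ± 0.094 in A512P (SE, adjusted p = 0.00145) and by 0.55 ± 0.094 in JmjC* (adjusted p = 1.07e-07) in log2 units in the authors' deposited tables. The TIP60 acetyltransferase complex, which also holds MRG15, gave 1 fall and no rise among 15 genes in A512P, at a background of 21.0%, and 4 rises and 1 fall in JmjC*, at a background of 28.8%. The fall in both was that of dom, its Swi2/Snf2 ATPase, at log2 -0.29 ± 0.089 in each authors' deposited table (adjusted p = 0.00813 in A512P and 0.00672 in JmjC*). Besides MRG15, the rises in JmjC* were Tip60, the acetyltransferase (log2 0.33; other exons cover 21.0% of its length), Ing3 (0.39) and Brd8, a bromodomain subunit (0.39), in the authors' deposited table. Tip60 was at 0.25, Ing3 at 0.15 and Brd8 at 0.23 in A512P in the authors' deposited table, below the call threshold, and no difference between mutants passed for these 3 genes.

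Among the histone deacetylase genes, HDAC6, whose product deacetylates tubulin, was at log2 0.20 ± 0.12 in A512P (adjusted p = 0.252) and rose by 0.39 ± 0.12 in JmjC* (adjusted p = 0.00786) in the authors' deposited tables. HdacX was at -0.18 ± 0.11 in A512P (adjusted p = 0.233) and fell by 0.35 ± 0.11 in JmjC* (adjusted p = 0.00534) in the authors' deposited tables. Other exons cover 21.1% of HDAC6 and 22.1% of HdacX. Hdac3 was listed at 0, as was CG45100, whose annotated exons cover all of the exon length of Hdac3. None of the 5 sirtuin genes passed in either mutant, and none had an unadjusted p under 0.05 by the authors' Wald test. The background for all lists of this paragraph was 21.0% called in either direction in A512P and 28.8% in JmjC*. An unadjusted p under 0.05 by that Wald test was held by 3710 of 11608 tested genes in A512P and 4553 of 11898 in JmjC*. In the 13 genes of other Caf1 complexes (CAF-1, PRC2, NURF and dREAM) none passed in A512P, where 1, Dp, had an unadjusted p under 0.05 by the authors' Wald test. In JmjC* mip120, a dREAM subunit gene, rose by 0.26 ± 0.10 (adjusted p = 0.0449) and Dp, the E2F partner gene, fell by 0.22 ± 0.076 (adjusted p = 0.0161) in the authors' deposited table. They were at 0.0997 and -0.18 in A512P in the authors' deposited table, neither past the threshold.

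The Myc network held 5 tested genes, of which 2 fell in A512P and 1 in JmjC*, at backgrounds of 10.8% and 14.6% lower. Mondo, a sugar-sensing relative of Myc, fell by 0.26 ± 0.054 in A512P (SE, adjusted p = 2.77e-05) and by 0.19 ± 0.054 in JmjC* (adjusted p = 0.00288) in log2 units in the authors' deposited tables. Mnt, which competes with Myc for the partner Max, fell by 0.24 ± 0.092 in A512P (adjusted p = 0.0498) and was at -0.22 ± 0.092 in JmjC* (adjusted p = 0.0525) in the authors' deposited tables. Its 2 values straddle the threshold at almost the same size, and its difference between mutants was -0.013 (adjusted p = 0.9997). foxo, the insulin-regulated transcription factor reported to act with KDM5, fell by 0.35 ± 0.078 in A512P (adjusted p = 0.000134) and by 0.25 ± 0.078 in JmjC* (adjusted p = 0.00769) in the authors' deposited tables.

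Some cell type markers were also called in the 2 comparisons. Of the 4 blood cell markers 2 rose in both mutants. Hml rose by 0.38 in A512P and 0.63 in JmjC*, and He by 1.04 and 0.75, in log2 units in the authors' deposited tables. NimC1 was at -0.034 in A512P and 0.10 in JmjC*, and Pxn at -0.059 and -0.084, in the same units and tables. Neither passed in either mutant. Of the 5 glial markers 2 fell in A512P (repo and Eaat1), and in JmjC* 4 fell while moody rose, by 0.42 in log2 units in the authors' deposited table. Of the 5 neuronal markers nSyb and Syn fell in both mutants, and of the 5 photoreceptor markers 4 were called in A512P and 2 in JmjC*. None of the 3 muscle and 3 fat body markers was called in either mutant. The background of calls in either direction was 21.0% in A512P and 28.8% in JmjC*. Of the 4 germline markers vas, at a mean normalized count of 20.6, was at -0.027 in A512P and rose by 1.03 in JmjC* (adjusted p = 9.34e-05) in the authors' deposited tables, and none of the others was called. The part of these in the changes of the chromatin genes was not tested.

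The genes around kdm5 showed no shared shift. Of 9 tested genes within 20 kb of lid, 1 rose and 1 fell in each mutant, at the backgrounds given above. Gal, which encodes a beta-galactosidase, rose by 0.45 ± 0.13 in A512P (SE, adjusted p = 0.00517) and by 0.34 ± 0.13 in JmjC* (adjusted p = 0.038) in the authors' deposited tables. eIF-4a, a translation initiation helicase gene, fell by 0.34 ± 0.065 in A512P and by 0.38 ± 0.065 in JmjC* in the authors' deposited tables. Tsp26A, whose start lies 727 bases from that of lid on the other strand, was at 0.091 in A512P and -0.12 in JmjC* in the authors' deposited tables, with adjusted p of 0.659 and 0.483. The nearest gene on the other side, ifc, 546 bases away, was at 0.094 in A512P and 0.18 in JmjC* in the authors' deposited tables, neither past the threshold. The profilin gene chic, beyond ifc, was at 0.18 in A512P and 0.13 in JmjC* in the authors' deposited tables, and CG9098, H2.0, CR43866 and CR43465 also did not pass. Ucp4B and Ucp4C were below the authors' filter.

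**Figure D4:**
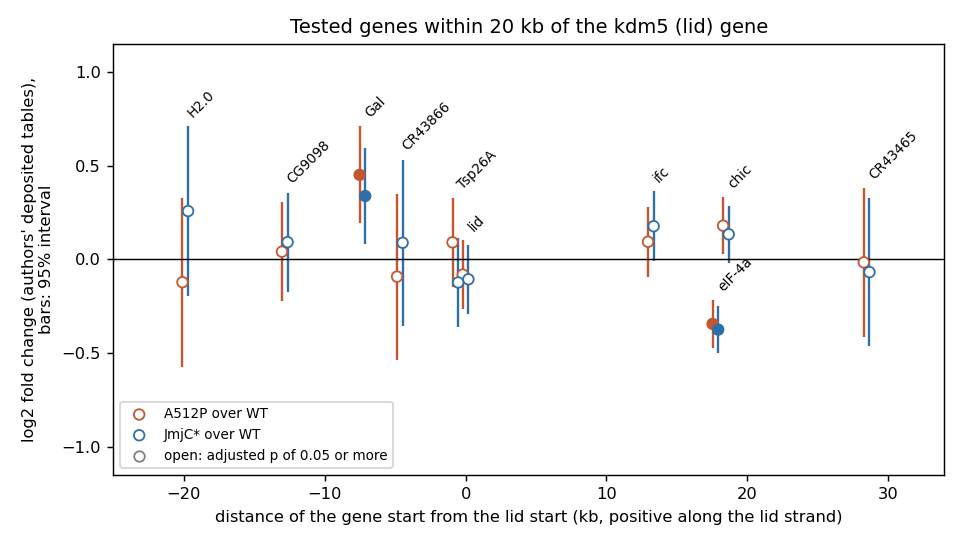
Log2 fold change over WT of the tested genes within 20 kb of lid, from the authors' deposited tables, against the distance of each gene's start from that of lid; A512P is orange, JmjC* blue, bars are 95% normal intervals and filled points have an adjusted p under 0.05. Gal at 0.45 and 0.34 and eIF-4a at -0.34 and -0.38 are the filled points, on opposite sides of 0.

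Of 14 tested genes within 20 kb of CG3815 (Pf1), 2 rose and 1 fell in A512P, at a background of 10.2% higher and 10.8% lower. In JmjC* 8 of these 14 rose and 2 fell, at a background of 14.2% higher and 14.6% lower, and no test compared this locus with others. CG15891, whose start lies 44 bases from that of CG3815 on the other strand, was at log2 0.14 ± 0.10 in A512P (adjusted p = 0.354) and rose by 0.27 ± 0.10 in JmjC* (adjusted p = 0.0267) in the authors' deposited tables. The largest of these rises was that of the annotated pseudogene CR32745, by 0.83 in A512P and 1.25 in JmjC* in the authors' deposited tables. CG15896, CG15892, CG11700, CG12219, Top3beta and Ubi-p5E rose in JmjC* by 0.25 to 0.83, and CG3823 and CG15894 fell by 0.51 and 0.31, in the authors' deposited table.

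Near Sin3A 3 of 10 tested neighbours rose in JmjC* and none fell, at the JmjC* background above: Cyp301a1 (log2 0.65), ClC-b (0.23), which shares 60 exon bases with Sin3A, and the non-coding RNA CR43909 (0.82), in the authors' deposited table. In A512P CR43909 rose (0.60) and the others were at 0.43 and 0.12 in the authors' deposited table. The mean normalized count of CR43909 was only 9.36, so its values rest on few reads. Near Caf1 4 genes rose in both mutants (Spn88Eb, Spn88Ea, CG4203 and CG31344), of 14 tested in A512P and 15 in JmjC*. The background for these tested neighbours was 10.2% higher and 10.8% lower in A512P and 14.2% and 14.6% in JmjC*. Of the same genes Art3 fell in both mutants, by 0.40 in A512P and 0.44 in JmjC*, and Amt was at -0.22 in A512P and fell by 0.29 in JmjC*, in the authors' deposited tables. CG31344 starts 247 bases from Caf1 on the other strand and rose by 0.29 ± 0.067 in A512P (adjusted p = 0.000242) and by 0.35 ± 0.067 in JmjC* (adjusted p = 1.85e-06) in the authors' deposited tables. Near MRG15, which lies 48.9 kb from Caf1, 2 of 12 tested genes rose and 1 fell in A512P, and 1 rose and 3 fell in JmjC*. These counts stand beside the same backgrounds. The histone chaperone gene Set rose by 0.30 in A512P and 0.34 in JmjC*, and CG42404 fell by 0.33 in A512P and 0.31 in JmjC*, in the authors' deposited tables. CG4338, which shares 35 exon bases with MRG15, rose by 0.57 in A512P (adjusted p = 0.00149) and was at 0.17 in JmjC* (adjusted p = 0.429) in the authors' deposited tables. eIF-2gamma was at -0.21 in A512P and fell by 0.38 in JmjC*, and ATPsynO was at -0.14 in A512P and fell by 0.28 in JmjC*, in the authors' deposited tables. Src64B, 538 bases from Rpd3, was at -0.12 in A512P and fell by 0.33 in JmjC* in the authors' deposited tables. No tested gene within 20 kb of Sir2 or Myc was called in either mutant, at the backgrounds above. The tested genes were few: near Sir2 7 in A512P and 8 in JmjC*, and near Myc 2 in each.

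Small shifts like those of lid were common. Of 4827 other genes with a mean normalized count of at least 1000 that were tested in both tables, 913 lay within 0.1 of lid over the 2 log2 fold changes, as a straight-line distance. The 5 nearest were Lnk, Act5C, UQCR-C2, CG7739 and Nhe3. This likeness rests on 2 comparisons that share their WT libraries.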

How the data were processed

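Whole adult heads were sequenced in 3 libraries each of A512P, JmjC* and WT, prepared from 500 ng of RNA with a stranded kit and 8 PCR cycles, per the labels' protocols. The submitters' processing notes name STAR and DESeq2 without versions. Genome build, annotation and strand setting were not given in the sources used here.

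Per the file headers, the authors' 2 tables give each gene a mean normalized signal (a count divided by size factors), identical in both tables, and a log2 fold change with its SE, mutant over WT as the comparisons are named. Their deposited score equalled the log2 fold change over its SE, the deposited p-value its two-sided normal p, and the adjusted p its Benjamini-Hochberg value over tested genes. The fold changes look shrunken toward 0, which understates changes of low genes. In A512P the SE was only 0.0517 for stil at a mean normalized count of 0.451, against 0.231 for H2.0 at 18.5. The SEs and intervals given here are those of the deposited values.

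The tests planned for counts were not used, since the files hold result tables. Genes were called at an adjusted p under 0.05, and the authors' values were read as they stood. The A512P minus JmjC* difference was tested over a combined SE, the root of both squared SEs added (two-sided normal test, Benjamini-Hochberg over 11608 genes). A run on simulated data drew noise from the same SEs under the spread that the test assumes. Its planted changes were larger than the Sin3A difference, so it does not show how often one of that size is found. Intervals are normal at 95%. The 8 genes and 10 lists were chosen with earlier results of these data known. Named genes are the 8, all LAF genes, called list genes, all genes within 20 kb of lid and called neighbours of the others; a few more were named beside these after their values were seen. Positions and overlaps are from Ensembl release 115 (BDGP6.54), where all 8 exon lengths equal those in the tables. Python 3.11.15, pandas 2.3.3 and SciPy 1.17.1 were used. Alternatives were a threshold of 0.01, no filter, a mean count of at least 50, centring on the median and the SE with the WT part removed.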

Additional observations from a re-analysis of the deposited data

How the results depend on the processing

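None of the 8 genes was called in A512P under any alternative run. In JmjC* Sin3A and MRG15 were called with no filter, with a mean normalized count of at least 50 and after centring. At an adjusted p under 0.01, 0 of the 8 genes were called in JmjC*, at a background of 20.5% of tested genes. By the authors' Wald test 4 of the 8 had an unadjusted p under 0.05 in JmjC*, against 4553 of all 11898 tested genes. The partner genes called in A512P numbered 5 at an adjusted p under 0.01, at a background of 13.9% of tested genes. They numbered 8 at the main threshold, at a background of 21.0%. The direct difference called 0 of the 8 genes, and 1, Sin3A, with the shared WT part taken out of the SE, where 429 of all genes were called against 102; the construction of that SE, which is smaller for every gene, accounts for the larger count. No direction of the 8 genes was reversed, but these alternatives could not reverse one. Only centring altered the fold changes, by the medians of 0.0027 in A512P and 0.011 in JmjC*. Leaving out replicates was not run, since values per library were not used here. No paired analysis was possible because the tables hold no values per library. The authors' SE limits calls of the 8 genes to estimated changes of at least 1.16-fold.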
